A study of Mus musculus with 8 samples.

Results

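Binding of the nuclear factor one (NFI) proteins in developing mouse cerebellum was examined at 10 genes of neuronal migration and polarity: the Reelin gene Reln, its receptors Vldlr and Lrp8 and their adaptor Dab1, the astrotactins Astn1 and Astn2, the polarity genes Pard3 and Pard6a, and the microtubule and dynein regulators Dcx and Pafah1b1. Peaks of 6 deposited chromatin immunoprecipitation sequencing (ChIP-seq) lists that overlapped by at least 1 bp were joined into 46070 regions. A region was given to one of the 10 genes when it overlapped the gene body or when the nearest protein-coding transcription start site (TSS), within 100 kb, was that gene's. By this rule 166 of the 46070 regions belonged to the 10 genes, and none belonged to more than 1 of them. The gene body brought in 146 regions and the nearest TSS 109, with 89 found by both.

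Binding of NFIA, NFIB and NFIX was profiled in granule neuron progenitors from the cerebellum of postnatal day 7 mice. Each factor had 1 library made from CD1 mice and 1 made from animals whose mixed background was described as resembling outbred CD1, here called Mixed. No mutant or treatment entered the comparison, and 2 input samples were not analysed here. The progenitors came from papain-dissociated cerebellum, with no marker sort named, and the peak lists hold no expression values against which the cell type could be checked. Whether a factor's libraries came from separate animals was not stated, and the 2 backgrounds were the sole replicates, so spread between them may be technical. The sample labels and the design text name different suppliers for the NFIB antibody.

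Granule neuron progenitors divide in the outer layer of the postnatal cerebellum, leave the cycle, polarise, and migrate inward along glial fibres. Reelin is a secreted glycoprotein that binds the receptors VLDLR and ApoER2 (the product of Lrp8) and sets off tyrosine phosphorylation of DAB1 inside the receiving cell. Astrotactins are neuronal membrane proteins of glial-guided migration, the PAR complex of PARD3 and PARD6A organises polarity and adhesion, and DCX and LIS1 (the product of Pafah1b1) act on microtubules and dynein when the nucleus is moved. NFI proteins bind DNA as dimers at a palindrome whose arm is TTGGC.

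The libraries differed in list length, from 7497 peaks for NFIX CD1 to 36431 for NFIB CD1. The NFIX CD1 library stood apart with the shortest list, so any count that demands a peak in every library depends on it. Fold values are those the authors' peak caller gave to each peak. They are used here to describe a peak within its own list, as the percentile of its fold among that library's peaks, and the mean percentile of a region is the mean over the libraries with a peak there. Where a region must have a peak in every library, its percentile tends to be lower in a short list than in a long one. Percentiles of different libraries are therefore not compared as levels of binding. The fold and p of a peak also gave the whole number of fragments at its summit. Sequencing depth cannot be read from the lists. With 2 libraries per factor no test between factors or backgrounds was made, since an exact permutation could not go below a p of 0.0667 for 1 factor against the other 4 libraries or 0.1 for CD1 against Mixed.

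Sequence was available for exons and for stretches just before gene starts, and 3 pieces are shown, chosen after the search because they lie in or beside a region of these genes and hold a match to the NFI single element. Of the 7 pieces of coding exon inside regions of the 10 genes, 2 held it and are shown. The other 5 did not, among them 192 bases in the common region of Astn1, with a CAGCTG alone, 230 bases of Reln under a peak of 1 library, with no match, and 3 pieces of at most 23 bases. Outside coding exons, a piece of Pappa2 exon in an Astn1 region of 1 library held 2 matches to the single element and is not shown. In each, capitals mark a 6-base match, on either strand, to the NFI single element or to an E-box. The single element is TTGGCA, which reads as TGCCAA from the opposite strand, and the E-box found here is CAGATG, which likewise reads as CATCTG. The first is coding exon 22 of Reln on the minus strand, at chr5:22018023-22018135 of mm10, inside a region with a peak in all 6 libraries. The second is coding sequence of Pard3 on the plus strand, at chr8:127603059-127603186, inside a region with peaks in 4 libraries. The third lies directly upstream of the annotated 5′ end of Dcx on the minus strand, at chrX:143933312-143933469, beside a region with peaks in 3 libraries.
Reln exon 22: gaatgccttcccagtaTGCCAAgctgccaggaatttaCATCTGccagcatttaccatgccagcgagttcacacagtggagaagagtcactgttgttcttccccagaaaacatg
Pard3 coding sequence: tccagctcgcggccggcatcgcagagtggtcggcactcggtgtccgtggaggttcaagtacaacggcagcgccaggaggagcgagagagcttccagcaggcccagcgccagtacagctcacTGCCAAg
Dcx upstream: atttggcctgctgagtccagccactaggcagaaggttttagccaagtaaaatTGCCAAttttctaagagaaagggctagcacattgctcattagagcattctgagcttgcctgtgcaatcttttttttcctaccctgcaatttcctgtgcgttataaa

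At least 1 region was found at 8 of the 10 genes, against 47.5% of 21951 protein-coding genes, and the same 8 had at least 1 region with a peak in all 6 libraries, here called a common region, against 12.9% of genes. Pard6a and Pafah1b1 had none. Gene length moved with these counts: the 10 bodies had a median length of 203 kb against 17.4 kb for all protein-coding genes. Among 998 genes with a body of 200 kb or more, 63.3% had a common region, and all 5 of the 10 genes in that class (Reln, Dab1, Astn1, Astn2, Pard3) had one. In the class under 200 kb the background was 10.5%, and 3 of the 5 shorter genes (Vldlr, Lrp8, Dcx) had one.

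Of the 166 regions, 34 were common, which is 20.5% against 13.2% of all 46070 regions. Peaks in 5 or 6 libraries were found in 64 regions (38.6%) against 26.5% of all regions, and a peak in 1 library in 45 (27.1%) against 31.9%. Dab1 held 11 of the 34 common regions, Reln 8, Astn2 6, Pard3 and Dcx 3 each, and Vldlr, Lrp8 and Astn1 1 each. Leaving out NFIX CD1 raised the number of common regions, then a peak in each of the other 5 libraries, from 34 to 61 (36.7% of 166), while the share over all regions rose to 25.3%.

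**Figure D1:**
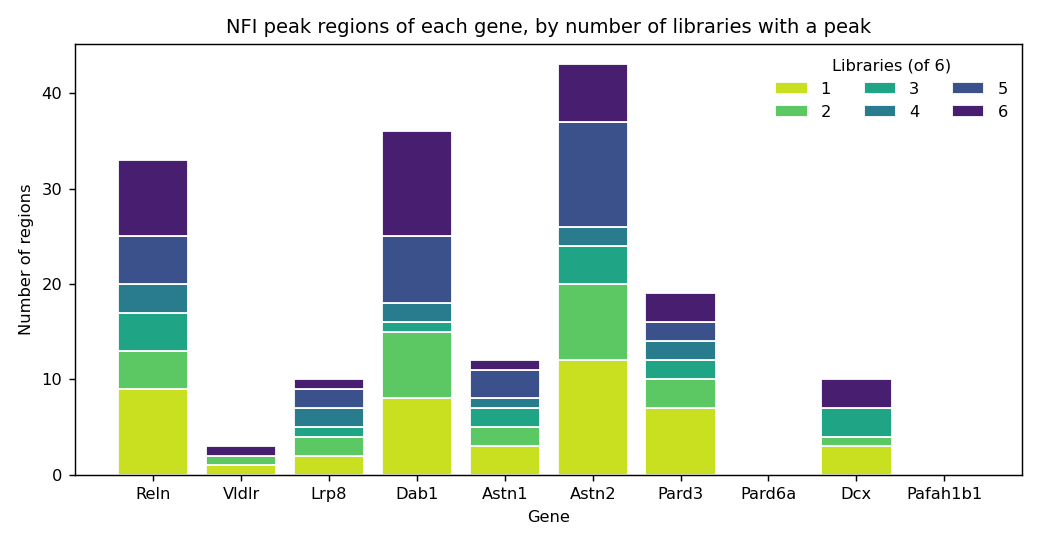
Bars give the number of NFI peak regions of each gene (vertical axis), split by the number of the 6 libraries with a peak in the region (colour, 1 to 6). Astn2 had 43 regions, Dab1 36 and Reln 33, Dab1 had the largest number in all 6 libraries (11), and Pard6a and Pafah1b1 had none.

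Peaks of all 3 factors lay in 72 of the 166 regions (43.4%, against 37.5% of all regions), and NFIB alone accounted for 59 (35.5%, against 35.7%). The counts by library followed the list lengths. Of the 166 regions, the CD1 libraries of NFIA, NFIB and NFIX had a peak in 72, 138 and 37, and their Mixed partners in 93, 129 and 85. CD1 was below Mixed for NFIA and NFIX and above it for NFIB, and the same held over all 46070 regions. There, in the same order, the CD1 libraries had a peak in 16590, 36050 and 7353, and the Mixed libraries in 23022, 32855 and 20934. In every library the share of the 166 regions was above the share of all regions. It ran from 22.3% against 16.0% in NFIX CD1 to 83.1% against 78.3% in NFIB CD1.

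Peaks in every library but NFIX CD1 were found in 27 regions (16.3%, against 12.1% of all regions), of which 10 lay at Astn2 and 7 at Dab1. The strongest of them by mean percentile was in intron 3 of Dab1 at chr4:104201651-104202144, with folds from 9.07 to 13.64 in the other 5 libraries and a mean percentile of 89.0. An NFIB peak was lacking in 7 regions. NFIA alone had 1 of them (0.602%, against 3.02% of all regions) and NFIX alone 3 (1.81%, against 3.07%). Both NFIA and NFIX had peaks in the other 3 (1.81%, against 0.97%). None of the 7 had more than 3 libraries, where at most 4 were possible. The pair with 3 libraries, in intron 19 of Astn2 (chr4:65441619-65441910) and intron 3 of Dcx (chrX:143878396-143878660), both had peaks of both NFIA libraries and of NFIX Mixed.

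Reln, the ligand gene, spans 460 kb on the minus strand of chromosome 5 (chr5:21884454-22344702). Its 8 common regions were spread over the gene rather than gathered at its start: 1 in intron 1, 2 in intron 2, 2 in intron 10, and 1 each in intron 20, exon 22 and intron 43. Among the 742 protein-coding genes, Reln included, whose bodies are from 0.5 to 2 times as long, the median was 1 common region. At least as many as Reln were found at 1.08% of those genes. In the whole genome 11 genes had more. Each share given here for genes of like length counts the gene itself.

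The leading Reln region lay in intron 10, at chr5:22092931-22094629, 251 kb from the 5′ end. Its fold was 14.55 in NFIA CD1 and 14.5 in NFIA Mixed, 20.82 and 20.19 in the NFIB pair, and 9.73 and 20.91 in the NFIX pair, CD1 first throughout. NFIX CD1 was the low library, at the 88.1 percentile of its list against 97.2 or more in the other 5. Its summits rested on 48 to 154 fragments, and it was followed after 150 bp by a second common region of intron 10, at chr5:22094780-22095551, with folds from 6.13 to 15.89.

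In intron 2 of Reln the common region at chr5:22266650-22267510 stood at a mean percentile of 93.7, with NFIX CD1 again lowest at 81.6 and NFIB Mixed highest at 99.2. A region in intron 43, at chr5:21948608-21949789, had folds of 9.72 and 9.02 for NFIA, 15.66 and 13.34 for NFIB, and 7.05 and 12.2 for NFIX. It was wide, overlapped the noncoding gene Gm10475, and its 6 summits fell within 43 bp. The region of Reln within 1 kb of a TSS (chr5:21933468-21933925) was weak, with a fold of 2.57 in NFIA Mixed and of 4.91 (CD1) and 4.09 (Mixed) for NFIB, and that TSS belongs to a short transcript near the 3′ end, 411 kb from the gene's start. No region of any library lay within 1 kb of the 5′ end of Reln.

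The common region over exon 22 of Reln (chr5:22017943-22018340) is the one whose sequence is printed above. Its folds were 4.92 and 8.52 for NFIA, 11.58 and 11.06 for NFIB, and 7.21 and 8.6 for NFIX. NFIA CD1 was the low library there, at the 29.9 percentile with 13 fragments, while the other 5 stood between the 70.7 and 89.4 percentiles. Inside the exon fell 5 of the 6 summits, and all 6 lay 1 to 28 bp from the TGCCAA element and 3 to 49 bp from CATCTG. These matches are descriptions of the letters in an exon chosen for them. Of the regions of the 10 genes, 5 had a middle summit whose window of 50 bases to each side lay wholly inside an exon. Exons of the overlapping genes Pappa2 and Trim32 were taken in. The single element was in 0 of these 5 windows, against 21.3% of 3116 such windows over all regions and 39.8% of the 221 in common regions. The exon 22 region of Reln and the Pard3 coding region are not among the 5, since their windows run past the exon.

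Vldlr, which encodes the very low density lipoprotein receptor and spans 37.7 kb (chr19:27216484-27254231), had 3 regions. Its common region was 92.9 kb upstream, at chr19:27123321-27123769, close to the 100 kb limit. The folds there were 7.0 and 7.84 for NFIA, 9.36 and 7.88 for NFIB, and 4.46 and 6.58 for NFIX, with NFIX CD1 at the 14.3 percentile and the others between 58.8 and 80.7. Under a limit of 50 kb, or with start sites of every gene biotype, this region was no longer given to Vldlr. Inside the gene there was a weak region in intron 1, in NFIB Mixed (fold 3.4) and NFIX Mixed (fold 3.53). Of 7114 genes of like length, 12.0% had at least 1 common region.

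Lrp8, the gene of the other Reelin receptor (chr4:107802261-107876840), had 10 regions in and around 74.6 kb, and its density of 10.7 body regions per 100 kb was second to that of Dcx (11.6) among the 10 genes. The common region in intron 2, at chr4:107820780-107821743, had folds of 9.07 and 8.39 for NFIA, 11.52 and 12.3 for NFIB, and 6.57 and 10.16 for NFIX. All 6 values stood between the 61.9 and 92.3 percentiles, on 48 to 152 fragments. It overlapped the noncoding gene Lrp8os2 and lay 1.7 kb from a TSS within Lrp8. Of 4976 genes of like length, 19.4% had at least 1 common region.

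Both other Lrp8 regions within 1 kb of a TSS served internal starts. One, 21.5 kb into the gene at chr4:107823500-107823945, had folds of 3.85 and 5.39 for NFIA, 6.17 and 4.49 for NFIB and 6.21 for NFIX Mixed. The other, at chr4:107830949-107831208, was a single NFIB Mixed peak with a fold of 3.62. No peak of either stood above the 55.8 percentile of its list, and the outermost 5′ end of Lrp8 had no region within 1 kb.

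Dab1, the intracellular adaptor that Reelin receptors engage, has the longest body of the 10 genes, 1125 kb (chr4:103619359-104744844). With 11 common regions among 36, it was passed by 3 genes in the genome, and 2.27% of 176 genes of like length had as many, where the median was 2. Of the 11, 6 lay in intron 1, 2 in intron 3, 2 upstream of the gene and 1 in the 3′ part of the body beyond the longest transcript. Intron 1 makes up 29.5% of the body. The count depended on the body rule, since 5 of the 11 remained when a region was given to its nearest TSS only.

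The leading Dab1 region, in intron 1 at chr4:103781193-103781949, had folds of 17.33 and 16.2 for NFIA, 19.64 and 20.35 for NFIB, and 9.52 and 13.64 for NFIX. It lay 162 kb from the nearest protein-coding TSS, and its summits rested on 50 to 168 fragments, the highest number among the common regions of the 10 genes. A second common region followed after 1.62 kb at chr4:103783574-103784004, much lower in each list, with folds from 4.66 to 7.17.

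Also in intron 1, the region at chr4:103685002-103685949 had folds of 9.56 and 18.21 for NFIA, 15.89 and 23.73 for NFIB, and 7.75 and 13.9 for NFIX. The Mixed library of each factor ranked above its CD1 partner there, within lists of unlike length. Percentiles ran from 76.4 in NFIX CD1 to 99.4 in NFIB Mixed. The third, in intron 3 at chr4:104288211-104288981, had folds of 11.32 and 15.25 for NFIA, 17.27 and 13.45 for NFIB, and 6.44 and 8.27 for NFIX. At this site both NFIX libraries ranked below all 4 others, at the 58.1 and 75.8 percentiles against 92.8 to 97.8. No summit fell within 1 kb of a Dab1 TSS.

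**Figure D2:**
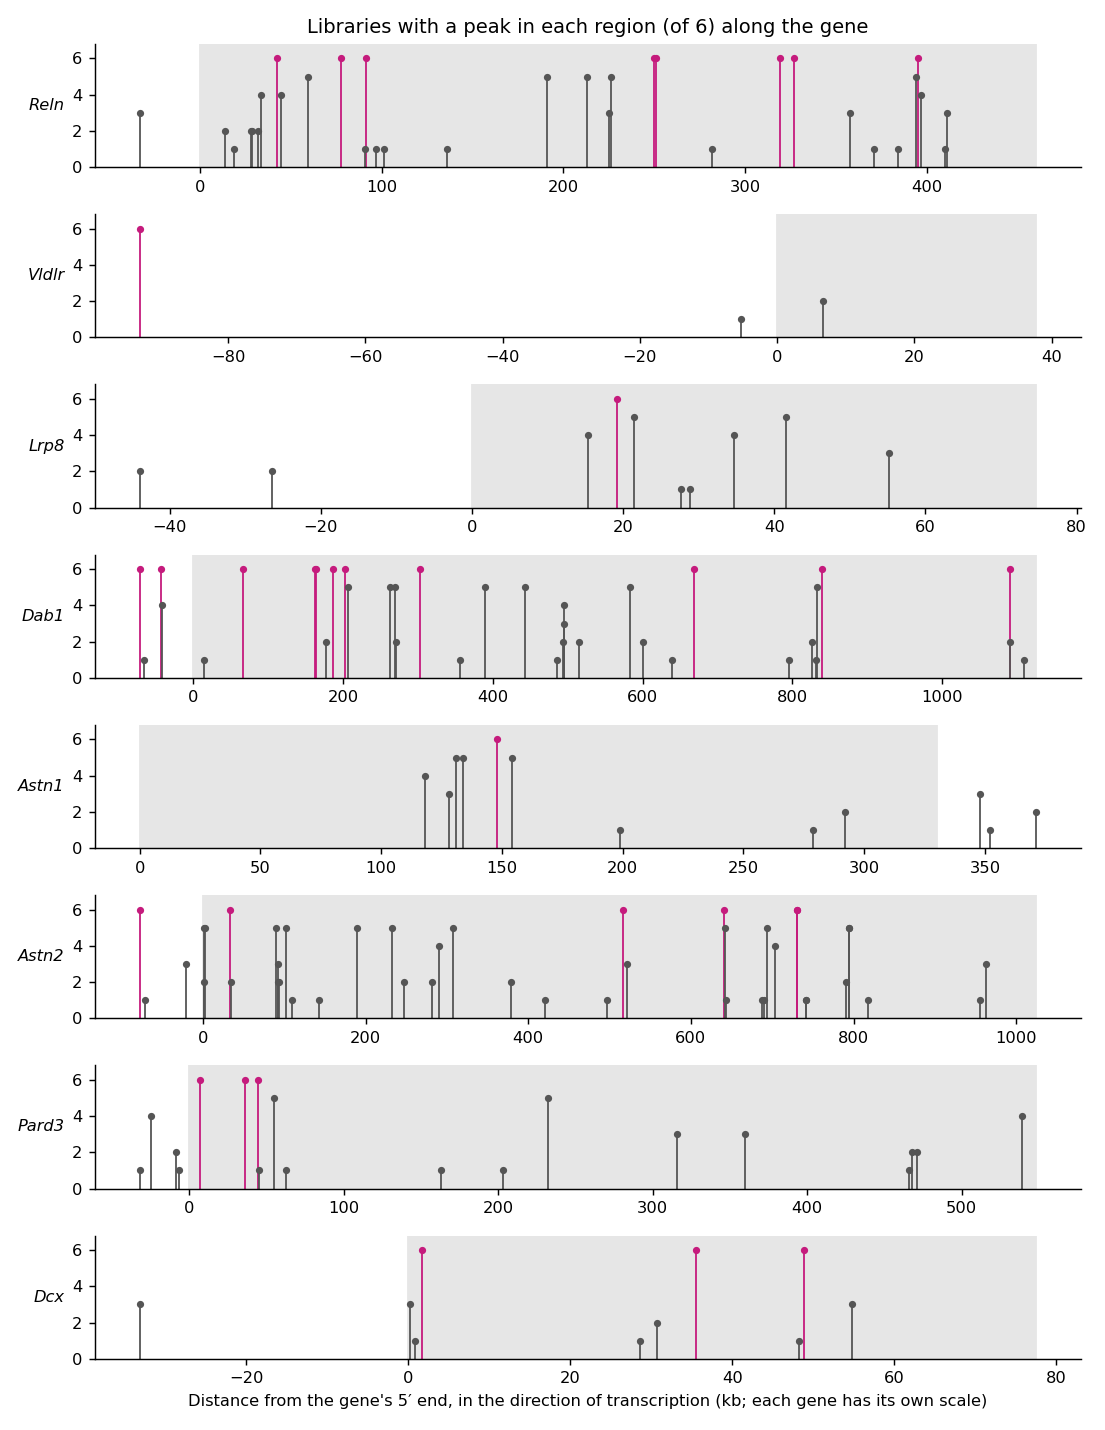
Each panel shows the regions of 1 gene along its distance from the 5′ end in kb (horizontal axis, own scale per gene, grey for the gene body) against the number of libraries with a peak (vertical axis, pink for all 6). The 3 common regions of Pard3 sit in the first intron, and those of Reln run along the gene. Of the 11 of Dab1, 6 lie in intron 1. The common region of Vldlr lies 92.9 kb upstream.

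Astn1, the neuronal surface protein of glial-guided migration (330 kb, chr1:158362273-158691781), and Astn2, a related protein that controls how much ASTN1 is held at the cell surface (1024 kb, chr4:65380803-66404611), both had regions in all 6 libraries. Astn1 had 12 regions with 1 common, and Astn2 43 with 6 common. Per 100 kb of body this was 2.73 and 0.303 for Astn1 and 3.91 and 0.488 for Astn2. Over the 998 bodies of 200 kb or more there were 0.342 common regions per 100 kb. At least as many common regions as Astn1 were found at 55.5% of 1145 genes of like length. For Astn2 this share was 17.4% of 213 genes.

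The common region of Astn1 covered the boundary of intron 6 and the coding exon after it, at chr1:158510485-158511185, and lay 0.766 kb from an internal TSS. Its folds were 5.94 and 7.45 for NFIA, 7.92 and 8.92 for NFIB, and 5.1 and 8.18 for NFIX, and none passed the 81.6 percentile. It also overlapped the gene Gm37679. The other 4 Astn1 regions with at least 4 libraries lay between 118 and 154 kb from the 5′ end, so the regions of the gene with 4 or more libraries fell in a stretch of its body and none near its start.

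Astn2 held one of the strongest sites of the 10 genes. In intron 11, at chr4:65763754-65764456, the fold was 19.35 and 24.26 for NFIA, 20.33 and 24.09 for NFIB, and 24.7 and 25.47 for NFIX. All 6 libraries placed it at the 98.4 percentile or above, NFIX CD1 included, and their summits fell within 14 bp, the closest among the 34 common regions. By mean percentile it ranked 45th of the 6062 common regions in the genome. The nearest protein-coding TSS was 159 kb away.

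The Astn2 region 78 kb upstream, at chr4:66482197-66483773, stood between the 94.8 and 99.4 percentiles and was wide, with summits spread over 334 bp. In intron 1, at chr4:66370844-66371181, the folds were 9.51 and 13.77 for NFIA, 6.73 and 9.2 for NFIB, and 11.64 and 12.5 for NFIX. Both NFIB libraries ranked below the other 4 here, at the 62.2 and 83.0 percentiles against 87.2 to 96.6. Of the 34 common regions, NFIB CD1 was the lowest library at 2 (5.9%, against 3.6% of all common regions). NFIB Mixed was the lowest at 1 (2.9%, against 6.7%). In intron 13 a pair of common regions lay 497 bp apart, and both were nearer to the TSS of Trim32 than to one of Astn2.

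Within 1 kb of an Astn2 TSS there was 1 region, at chr4:66403452-66403896, 0.951 kb from the 5′ end. It had peaks in NFIB CD1 (fold 4.31) and NFIB Mixed (fold 3.93) and in no other library, at the 23.8 and 18.9 percentiles. Beyond the 100 kb limit upstream of Astn2, 111 kb from its TSS, a region in all 6 libraries had a mean percentile of 96.3 and was not counted.

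Pard3 encodes the scaffold of the PAR polarity complex and spans 548 kb (chr8:127063893-127612286). Its 3 common regions all lay in intron 1, which makes up 17.6% of the body. Of 605 genes of like length, 26.6% had at least as many common regions as Pard3. The pair at chr8:127099569-127100248 and chr8:127107873-127108397, 7.62 kb apart, ranked 12th and 32nd by mean percentile among the 6062 common regions. At the second, the folds were 28.32 and 27.03 for NFIA, 30.32 and 28.37 for NFIB, and 15.64 and 35.72 for NFIX. Its 6 percentiles ran from 97.7 in NFIX CD1 to 99.9, and the first had a mean percentile of 99.7.

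The third Pard3 region, at chr8:127070221-127070882, 6.6 kb from the 5′ end and 2.74 kb from the nearest Pard3 TSS, had folds of 9.48 and 14.36 for NFIA, 11.36 and 16.35 for NFIB, and 6.06 and 17.97 for NFIX. In each factor Mixed ranked above CD1 within its own list, and the gap was widest for NFIX, at the 50.5 against the 97.7 percentile. The NFIX lists held 7497 peaks in CD1 and 21443 in Mixed, and a rank depends on list length. A difference between backgrounds was not tested. The coding piece printed above belongs to a region near the 3′ end of the gene, at chr8:127602925-127603461. That region had a fold of 5.16 in NFIA Mixed, 9.67 (CD1) and 8.05 (Mixed) for NFIB, and 8.71 in NFIX Mixed. Its TGCCAA element lay 8 to 37 bp from the 4 summits, of which 1 fell inside the printed piece.

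Pard6a, a partner of PARD3 that has been studied at the centrosome of migrating granule neurons, had no region. It is short, 2.3 kb (chr8:105701148-105703496), and 72.6% of 2945 protein-coding genes of like length, Pard6a among them, had none. The nearest regions lay 1.51 kb away in the body of Enkd1, with folds of 5.88 in NFIB CD1 and 5.59 in NFIB Mixed, and 2.16 kb away in Acd, with 3.94 and 3.75 in the same libraries. Neither had an NFIA or NFIX peak. A region in 4 libraries lay 6.34 kb away in Carmil2.

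Dcx encodes doublecortin, which binds and stabilises microtubules in migrating neurons, and spans 77.5 kb on the minus strand of chromosome X (chrX:143855842-143933311). It had 10 regions with 3 common, and 1.81% of 4857 genes of like length had as many common. Its 3.87 common regions per 100 kb of body was the highest density among the 10 genes. One lay in intron 1, 1.68 kb from the 5′ end, and the other two in intron 3, which makes up 59.1% of the body.

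At the intron 1 site of Dcx (chrX:143931410-143932096) the folds were 5.82 and 6.16 for NFIA, 10.65 and 8.15 for NFIB, and 6.52 and 7.4 for NFIX. At the stronger intron 3 site (chrX:143897585-143898393) they were 6.79 and 9.16, 11.04 and 10.29, and 7.74 and 9.46. The fragments were few at both, 12 to 31 at the summits. At the third, chrX:143884245-143884735, NFIX CD1 stood at the 14.9 percentile with 10 fragments and the others between 65.4 and 84.6.

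The 5′ end of Dcx was covered by a region with peaks in 3 libraries, at chrX:143932808-143933366, with folds of 8.55 in NFIB CD1, 3.9 in NFIB Mixed and 6.17 in NFIX Mixed. No NFIA peak lay there. The upstream sequence printed above shares 55 of its 158 bases with this region, and its TGCCAA element lies 46 bp outside the region. A single NFIB Mixed peak with a fold of 4.3 lay 0.814 kb into the gene, at chrX:143932334-143932521.

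Pafah1b1, whose product LIS1 regulates dynein (50.7 kb, chr11:74673949-74724670), had no region. Among 6275 genes of like length 39.2% had none. The nearest was a single NFIB CD1 peak 24.6 kb away with a fold of 2.36, nearer to the TSS of Cluh, and the next, 91.2 kb away, was a single NFIB Mixed peak with a fold of 3.91 in Rap1gap2.

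**Figure D3:**
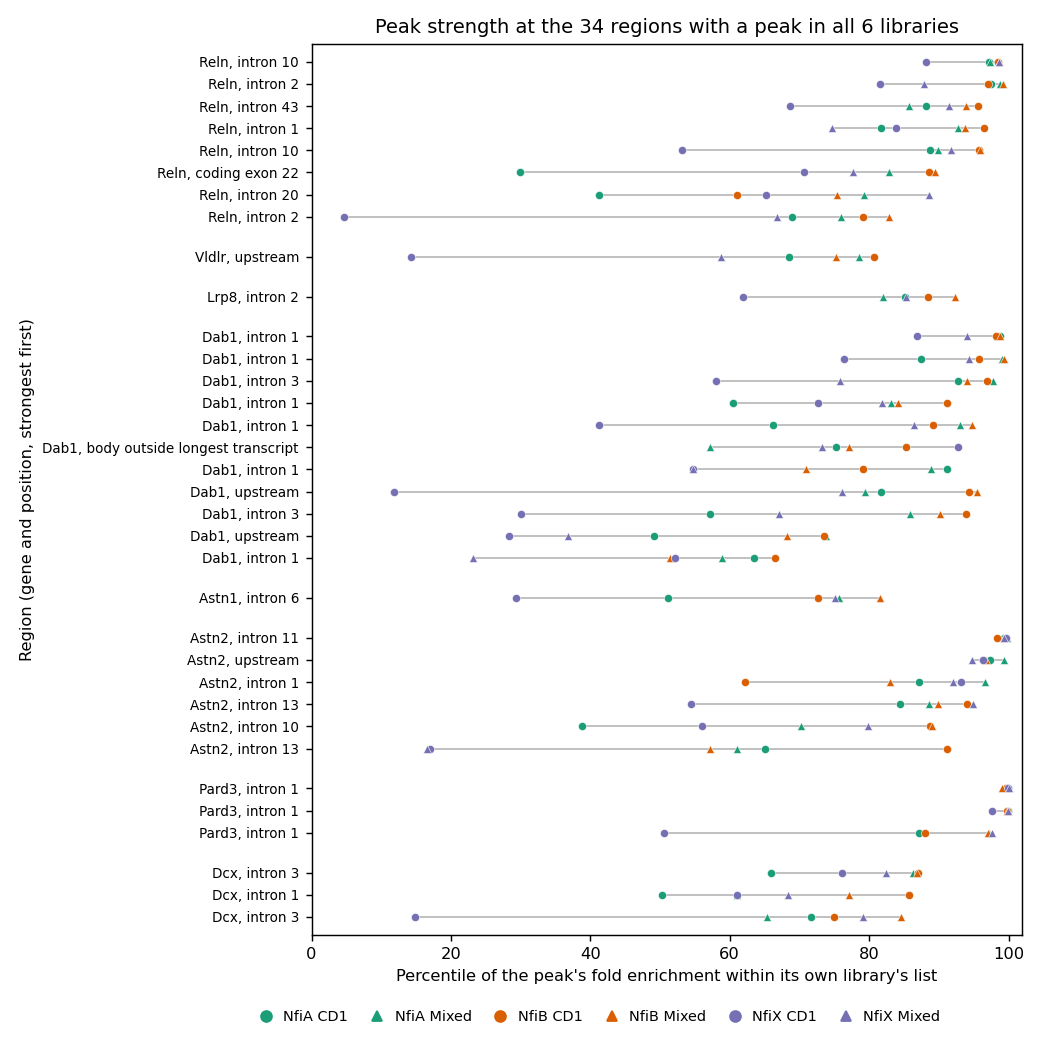
Rows are the 34 common regions, grouped by gene, and the horizontal axis is the percentile of a peak's fold within its own library's list. Colour marks the factor, circles CD1 and triangles Mixed, and the line joins the lowest and highest library. At intron 11 of Astn2 and the leading 2 sites of Pard3 all 6 libraries sit at the 97.7 percentile or above, whereas NFIX CD1 falls as low as 4.7 at a Reln site in intron 2.

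Over the 34 common regions the median of the mean percentiles was 79.8, against 75.7 for all 6062 common regions, and 8 of the 34 (23.5%, against 18.8%) had a mean of 90 or more. NFIX CD1 was the lowest-ranking library at 20 of the 34 (58.8%, against 67.1% of all common regions) and NFIA CD1 at 6 (17.6%, against 10.6%). Such ranks depend on list length. Over all common regions the median percentile was 52.7 in NFIX CD1, which had 7353 regions, and 89.5 in NFIB CD1, which had 36050. The 6 summits of the 34 common regions spread over a median of 65.5 bp, against 62 bp for all. At 8 of the 34 the summits fell within 50 bp, against 36.2% of all. Between 10 and 168 fragments stood at a summit, with a median of 41, while peaks of regions seen in 1 library had 9 to 33 with a median of 15.

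By position, 140 of the 166 regions fell in introns, 17 upstream, 3 downstream, 2 in coding exons and 1 in a noncoding exon, with 3 in the body of Dab1 beyond its longest transcript. The rule takes in every region of these long bodies, so this excess of introns is set by the rule. A summit within 1 kb of a TSS was found at 5 of the 10 genes (Reln, Lrp8, Astn1, Astn2, Dcx), against 18.8% of genes, in 7 regions of which 1, that of Astn1, was common. The background is not matched for gene length or number of start sites. Regions of Reln, Lrp8 and Astn1 lay at internal starts. Within 5 kb of a protein-coding TSS lay 4 common regions (11.8%), against 11.7% of all common regions. Over 100 kb from one lay 7 (20.6%), at Dab1 and Astn2, against 36.9% of all, and the nearest-TSS rule admits none beyond that distance.

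Another common region lay within 10 kb of 10 of the 34 (29.4%), against 16.9% of all common regions. They formed 5 pairs, of which 2 lay in Reln and 1 each in Astn2, Dab1 and Pard3.

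**Figure D4:**
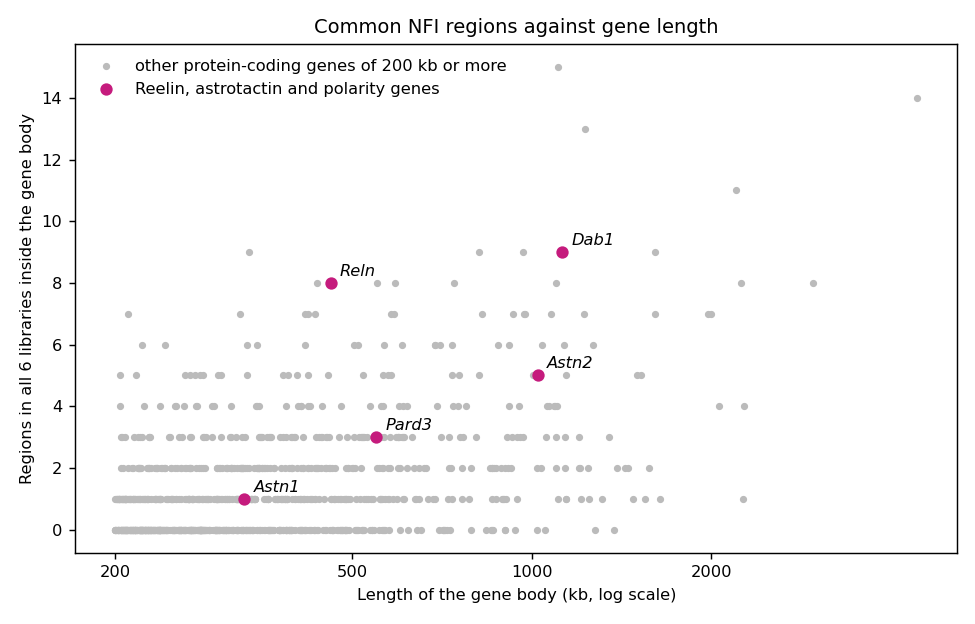
Each point is a protein-coding gene of 200 kb or more, with body length in kb on a log axis and the number of common regions inside the body on the vertical axis, pink for the 5 named genes. Dab1 had 9 in the body, Reln 8, Astn2 5, Pard3 3 and Astn1 1, where the median of the 998 genes was 1 and the highest count 15.

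Genes whose counts over the 6 libraries were most like those of the 3 leading genes were sought among genes of like length, by distance between log2(regions + 1). For Dab1 they were Slit3, Tenm4 and Clstn2, with 7, 8 and 8 common regions. For Reln they were Csmd2, Slit3 and Rasgef1b, with 7, 7 and 6, and for Astn2 Cdh13, Opcml and Rbfox1, with 6, 6 and 7. Cdh13 was the nearest of all, at a distance of 0.186, with 44 regions to the 43 of Astn2.

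Other genes of these pathways were taken from 3 lists of 56 genes in all, whose bodies had a median length of 49 kb, against 17.4 kb for all protein-coding genes. Common regions were found at 18 of the 56 (32.1%, against the 12.9% of all genes), and the median gene of each list had none. This comparison is not matched for gene length, and no share among genes of like length was computed for the lists. In the Reelin signal and its outputs, 9 of 22 genes had one, led by Pik3r1, a regulatory subunit of phosphoinositide 3-kinase (folds 7.03 to 13.9, mean percentile 85.5), Crkl, an adaptor bound by phosphorylated DAB1 (7.65 to 12.5, 83.8), and Gsk3b, a kinase downstream of AKT (3.68 to 14.5, 70.7). All 3 stood below the leading sites of Reln and Dab1 in mean percentile. The regions of Pik3r1 and Gsk3b lay outside the gene body, 87.1 and 44.2 kb from the TSS.

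Among genes of the Par complex and of granule neuron exit, 3 of 18 had a common region. Pard3b, a relative of Pard3 with a body of 1003.5 kb, had 6, the strongest with folds from 13.7 to 22.3 and a mean percentile of 98.1. The adhesion genes Chl1 (86.7) and Cntn2 (73.6) were the others, while Prkci, Prkcz, Pard6b and Pard6g, which supply the kinase and PAR6 parts of the complex, had regions but no common one. In the dynein, nuclear movement and microtubule list 6 of 16 had one, led by the doublecortin-like kinase gene Dclk2 (folds 8.07 to 23.7, mean percentile 86.3), Map1b (80.2) and the dynein intermediate chain gene Dync1i1 (69.5). The named regions of Cntn2, Dclk2 and Map1b lay outside the gene bodies, 17.9, 46.7 and 46.6 kb from the TSS.

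The motif letters searched on both strands were the NFI palindrome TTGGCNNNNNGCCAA, the single element TTGGCA, which overlaps it, and the E-boxes CAGCTG and CAGATG. In the 17 promoter sequences of the 10 genes the palindrome was in 0 (0.0365% of 32851 mouse promoters of the same length), the single element in 1, upstream of Dcx (14.1%), CAGCTG in 3, of Astn1, Pard6a and Vldlr (16.3%), and CAGATG in 2, both of Lrp8 (17.2%). The intronic regions were not searched.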

How the data were processed

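ChIP-seq peaks of 6 libraries were analysed. Per the submitters' processing notes, Bowtie2 2.2.6, SAMtools 1.4.1 and MACS2 2.1.0 were named with the build mm10; alignment settings, the use of inputs and the peak threshold are not stated in those notes or the labels. The deposited lists give, per peak, a fold enrichment (a ratio, by the authors) and −log10 p and q values by the authors. Peaks were called per library. From these, regions, percentiles and summit fragments (a whole number matching the fold and −log10 p within 0.002, found for every peak) were computed with Python 3.11.15 and scipy 1.17.1. Scripts were tested on simulated data. Genes are from GENCODE release M21 (mm10). Exon sequences are from its transcripts, and promoter sequences (250 bases before to 50 after a start, all 10 genes matched) from RefSeq, GRCm38.p6, which shares mm10 coordinates. Exon and intron numbers follow the coding transcript with the longest span.

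The 10 genes, the pathway lists and the tests were chosen with earlier results of these data known. Named regions were every common region of genes with at most 3, otherwise the 3 with the highest mean percentile, and every region with a summit within 1 kb of a TSS; per pathway list, the 3 genes with the highest mean percentile of a common region were named. The exon 22 region of Reln, the second regions of the close pairs, the intron 3 region of Dab1 without NFIX CD1, the Pard3 coding region, the printed sequences and the regions without NFIB were chosen after their values were seen. CD1 is replicate 1 and Mixed replicate 2. Alternatives were another way of joining peaks, a −log10 q of 5 or more, equal list lengths, other rules and limits for giving regions to genes, and leaving out each library.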

Additional observations from a re-analysis of the deposited data

How the results depend on the processing

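With the 7497 highest-fold peaks of every library, regions of the 10 genes fell to 64, common ones to 20, their share rose to 31.2% (21.5% over all regions) and genes with a common region fell to 1506. Giving regions by nearest TSS only left 109 regions, and by gene body only 1730 genes with a common region. A promoter width of 5 kb gave 18 regions in place of 7. When a library was left out, common meant a peak in each of the other 5, a looser demand. Common counts could then hardly fall, nor the number of regions rise. Leaving out each library in turn gave 144 to 166 regions, 34 to 61 common regions, a common share of 20.9% to 36.7%, 8 genes of the 10 with a common region, and 2837 to 4541 genes in all. The top values came without NFIX CD1, when common regions numbered 13 at Reln, 18 at Dab1, 16 at Astn2, 5 at Pard3 and 3 at Lrp8. Astn1 had 2 without either NFIA library or without NFIX CD1. By nearest TSS only, Dab1 kept 5 of its count and Astn2 2. Vldlr had 0 with equal lists, with gene bodies only, within 50 kb and with start sites of every biotype. The 197 alternative values include those with a library left out. Of the 197, 168 stayed within 1.5 times the main value or, for a share, its 95% interval. These include the common region counts of Pard6a and Pafah1b1, which were 0 in every setting. The NFI palindrome was in 0 of 5 exonic windows in regions of the 10 genes (1.03% of 3116 over all regions), and with arms of 4 bases, chosen after the data were seen, also in 0 of 5 (6.9%). No test was made, so the CD1 and Mixed libraries were not analysed as pairs. Depth is unknown, so a region without a peak in a library is not shown to be unbound there. Peak lists locate binding and say nothing of expression.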
